A study of Mus musculus with 72 samples.

Results

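The endoplasmic reticulum (ER) stress programme was followed in 34 mouse genes: the sensors and transcription factors of the unfolded protein response, the chaperones and disulfide isomerases of the ER lumen, the machinery of translocation and ER-associated degradation, and targets of the PERK-ATF4 branch. The genes were chosen by symbol, and every probe set whose platform annotation gave one of those symbols was taken, which yielded 78 probe sets out of 45037. All 34 genes were present, out of 18193 genes with a probe set assigned to 1 symbol. Each gene is represented below by its brightest probe set over all 72 arrays, the same in every tissue; 24 genes had several probe sets and 10 had 1.

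The animals were female SAMP1 mice (senescence accelerated mouse prone 1, an inbred strain that ages early), 4 weeks old when feeding began. They received QH2, the reduced form of coenzyme Q10, or Q10, its oxidised form, each at 500 mg per kg body weight per day, or a control diet without either supplement named in the labels. Feeding lasted 14 or 6 months, so that mice were 15 or 7 months old at death, and each organ (liver, kidney, heart and brain) had 3 Affymetrix arrays per diet and duration. The labels do not say which arrays of different organs came from the same mouse. The design thus asks, in each organ, what either form of the coenzyme changes, whether the forms differ, and whether the change depends on how long it was fed. All groups were SAMP1, so no ordinary strain stands beside them. Mice were caged 3 to 6 together in fixed groups, and cage and diet cannot be told apart.

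ER-resident proteins fold with the help of BiP (Hspa5) and its partners, and unfolded chains that occupy BiP release the sensors IRE1 (Ern1), PERK (Eif2ak3) and ATF6 (Atf6). IRE1 splices the mRNA of the transcription factor XBP1, which together with ATF6 raises chaperones and degradation factors, whereas PERK slows translation and favours ATF4 and its targets, among them the pro-apoptotic factor CHOP (Ddit3). Coenzyme Q10 carries electrons in the mitochondrial inner membrane; its reduced form is also a lipid-soluble antioxidant.

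Promoters of 30 of the 34 genes were available from RefSeq (GRCm38.p6), as windows of 250 bases before to 50 after the annotated start. They were searched on both strands for the ER stress response element ERSE (CCAAT, 9 bases, CCACG), for ERSE-II (ATTGG, 1 base, CCACG), for the XBP1-type element UPRE (TGACGTGG) and for the ATF4-type element CARE (TGATGNAA). ERSE occurred in 9 of the 30 genes (30%), against 0.119% of all 32851 windows. The first share counts genes and the background counts windows, which came from 27025 genes, since a gene could have several. ERSE-II occurred in 2 (6.67%) against 0.0365%, UPRE in 0 against 0.676%, and CARE in 4 (13.3%) against 3.97%. A match describes letters in the window and is no evidence of binding. The 250 bases before the start are shown for the genes that held a motif there and were named in 3 or more comparisons between diets, so that the sequences can be set beside the genes named most often below. The choice rests on those results. Xbp1, Pdia4, Atf4, Dnajb9, Edem1 and Sel1l were named in 3 or more such comparisons too, but held none of the motifs. Pdia3, also named below, held none either, and Manf and Derl1 had no window. Each runs 5′ to 3′ on the gene's strand, with motifs in capitals. Hsp90b1 held 2 ERSE copies, Herpud1 an ERSE-II and a CARE, Asns a CARE, and the others 1 ERSE each.
Hspa5, chr2:34771840-34772089 (plus strand): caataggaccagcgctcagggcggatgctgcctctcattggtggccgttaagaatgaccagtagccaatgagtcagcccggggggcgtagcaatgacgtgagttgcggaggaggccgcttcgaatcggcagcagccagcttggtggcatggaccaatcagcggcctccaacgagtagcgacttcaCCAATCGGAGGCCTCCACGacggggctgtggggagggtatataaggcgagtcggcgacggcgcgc
Hsp90b1, chr10:86705445-86705694 (minus strand): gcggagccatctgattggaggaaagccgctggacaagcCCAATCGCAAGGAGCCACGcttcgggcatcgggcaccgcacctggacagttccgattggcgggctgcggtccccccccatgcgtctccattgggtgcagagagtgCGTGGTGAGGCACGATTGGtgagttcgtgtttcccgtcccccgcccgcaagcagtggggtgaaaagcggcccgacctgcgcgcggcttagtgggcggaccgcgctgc
Dnajc3, chr14:118937682-118937931 (plus strand): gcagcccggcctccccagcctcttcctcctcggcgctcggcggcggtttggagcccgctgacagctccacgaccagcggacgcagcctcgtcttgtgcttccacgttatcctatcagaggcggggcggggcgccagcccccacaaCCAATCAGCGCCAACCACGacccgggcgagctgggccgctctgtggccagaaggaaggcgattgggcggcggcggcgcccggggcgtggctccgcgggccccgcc
Creld2, chr15:88819396-88819645 (plus strand): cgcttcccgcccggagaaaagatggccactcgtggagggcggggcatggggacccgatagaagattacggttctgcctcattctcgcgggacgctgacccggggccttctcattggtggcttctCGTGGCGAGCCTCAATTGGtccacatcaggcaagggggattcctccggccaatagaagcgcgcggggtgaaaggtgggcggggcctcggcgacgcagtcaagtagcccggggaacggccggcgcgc
Calr, chr8:84846932-84847181 (minus strand): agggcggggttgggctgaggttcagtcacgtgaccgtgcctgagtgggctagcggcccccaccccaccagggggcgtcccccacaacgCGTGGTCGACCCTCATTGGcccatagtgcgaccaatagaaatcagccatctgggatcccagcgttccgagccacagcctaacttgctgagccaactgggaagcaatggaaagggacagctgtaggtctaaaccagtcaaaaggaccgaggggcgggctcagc
Herpud1, chr8:94386179-94386428 (plus strand): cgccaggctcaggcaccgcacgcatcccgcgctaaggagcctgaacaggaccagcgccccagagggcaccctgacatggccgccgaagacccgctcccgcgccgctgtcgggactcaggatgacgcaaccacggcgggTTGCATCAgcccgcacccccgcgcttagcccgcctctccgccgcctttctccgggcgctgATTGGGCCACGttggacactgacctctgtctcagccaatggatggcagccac
Asns, chr6:7693210-7693459 (minus strand): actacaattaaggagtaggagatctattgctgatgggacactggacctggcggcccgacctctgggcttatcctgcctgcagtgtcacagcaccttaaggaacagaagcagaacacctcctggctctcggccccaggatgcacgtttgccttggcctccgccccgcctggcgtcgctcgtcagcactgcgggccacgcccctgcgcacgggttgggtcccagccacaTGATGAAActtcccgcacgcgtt

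The ERSE of Hspa5 lay 65 to 47 bases before the start, that of Dnajc3 105 to 87 bases before it, that of Creld2 126 to 108 and that of Calr 162 to 144. Hsp90b1 carried its copies at 212 to 194 and at 107 to 89 bases, and the CARE of Asns lay closest, at 23 to 16 bases.

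The arrays were deposited as linear intensities that were not on a common level (mean signal per array: brain 143 to 281, heart 109 to 281, kidney 133 to 264, liver 85.8 to 174), and were quantile normalised within each organ. Each difference is given as a log2 fold change ± its standard error from limma, fitted over the 27022 brighter probe sets of an organ with 18 arrays; a gene is called where its p-value, adjusted over all of them by the Benjamini-Hochberg method, is under 0.05. The median 95% interval reached to either side, on the log2 scale, 0.35 in brain, 0.46 in kidney, 0.54 in heart and 0.69 in liver, so brain resolved the smallest differences. P-values measure the spread between these arrays only. An exact permutation test of 3 arrays against 3 cannot go below p = 0.1. The markers of each organ's own cells were highest in that organ: the summed signal of the hepatocyte list was 60770 to 71938 in liver, that of the tubule list 35482 to 44174 in kidney, that of the cardiomyocyte list 67085 to 74962 in heart and that of the neuron and glia list 35327 to 39260 in brain. RNA integrity, read as the ratio of the 3′ to the 5′ beta-actin probe set, spread most in liver (1.59 to 7.36) and least in brain (1.66 to 1.95).

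Between organs, the folding machinery was highest in liver. After joint normalisation of all 72 arrays, liver had 23 of the 34 genes higher and 5 lower than the other 3 organs, kidney had 20 higher and 9 lower, heart 7 higher and 23 lower, and brain 6 higher and 24 lower. Such calls were made in brain for 85.6% of all probe sets, in liver for 82.7%, in heart for 81.9% and in kidney for 73.1%, so the counts of calls were near the background in each organ. The direction was uneven: the genes had a median log2 difference of 0.67 in liver, where all probe sets had -0.048; of 0.19 in kidney, where all had 0.019; of -0.46 in heart, where all had 0.025; and of -0.54 in brain, where all had -0.13. Levels are compared below only for the same probe set across organs.

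In liver the differences with the smallest p were P4hb at 1.90, Derl2 at 2.26, Edem1 at 3.55, Dnajc3 at 1.85, Sec61b at 1.30 and Ern1 at 1.87, followed by Pdia4 at 1.88, Asns at -3.23, Calr at 0.76, Dnajb11 at 0.92, Pdia6 at 1.18 and Hyou1 at 1.17. P4hb, a subunit of prolyl hydroxylase and a disulfide isomerase, had a lowest, median and highest signal of 3922, 4257 and 4899.6 over the 18 livers, against 378, 450.3 and 478 over the 18 brains. Edem1, which hands misfolded glycoproteins to degradation, had 579, 730.4 and 1025 in liver, 11.6, 17.8 and 25.5 in brain, 15.4, 46.4 and 112 in heart and 249, 269.7 and 364 in kidney. No liver overlapped another organ for either gene, nor for Ern1, Dnajc3 or Derl2.

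Kidney had its smallest p for P4hb at 1.12, Dnajc3 at 1.05, Sec61b at 0.85, Edem1 at 1.73, Atf6 at -0.88 and Eif2ak3 at 0.80, and then for Canx at 0.47, Calr at 0.46, Sesn2 at 2.00, Pdia3 at 0.56, Herpud1 at 0.67 and Creld2 at 0.67. Sesn2, a stress-inducible regulator of mTOR signalling, was the gene of which every kidney exceeded every array of the other organs. Heart was led by Atf6 at 1.36, Sec61b at -1.11, Calr at -0.77, P4hb at -0.54, Edem1 at -1.78 and Dnajc3 at -0.90, followed by Ppp1r15a at 1.32, Sel1l at -0.70, Eif2ak3 at -0.79, Canx at -0.46, Pdia3 at -0.73 and Derl1 at -0.66; every heart lay above all other arrays for Atf6 and for Ppp1r15a, the stress-induced subunit of the phosphatase that restores translation.

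In brain the leading differences were P4hb at -2.49, Derl2 at -2.23, Dnajc3 at -2.00, Edem1 at -3.50, Herpud1 at -2.54 and Asns at 4.07, then Ern1 at -1.84, Sec61b at -1.04, Creld2 at -1.45, Dnajb11 at -0.85, Pdia4 at -1.12 and Pdia6 at -0.92. Asns, asparagine synthetase, was the only 1 of the 34 genes whose highest organ was brain: its lowest, median and highest signals were 598, 737 and 867 in brain, 6.5, 16.1 and 43.6 in liver, 49.6, 76.7 and 108 in kidney and 53, 64.1 and 96 in heart. The chaperone Hspa5 overlapped between all organs, at 2094, 2982 and 4359 in brain, 2332, 2638 and 2985 in heart, 2123, 3302 and 4569.7 in kidney and 2341, 4072 and 4950.1 in liver. Atf4 ran from 324 to 815 in heart, a range that held every array of the other 3 organs. Ddit3 overlapped between organs too, with medians of 214 in heart, 171 in brain, 113 in kidney and 86.8 in liver.

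**Figure D1:**
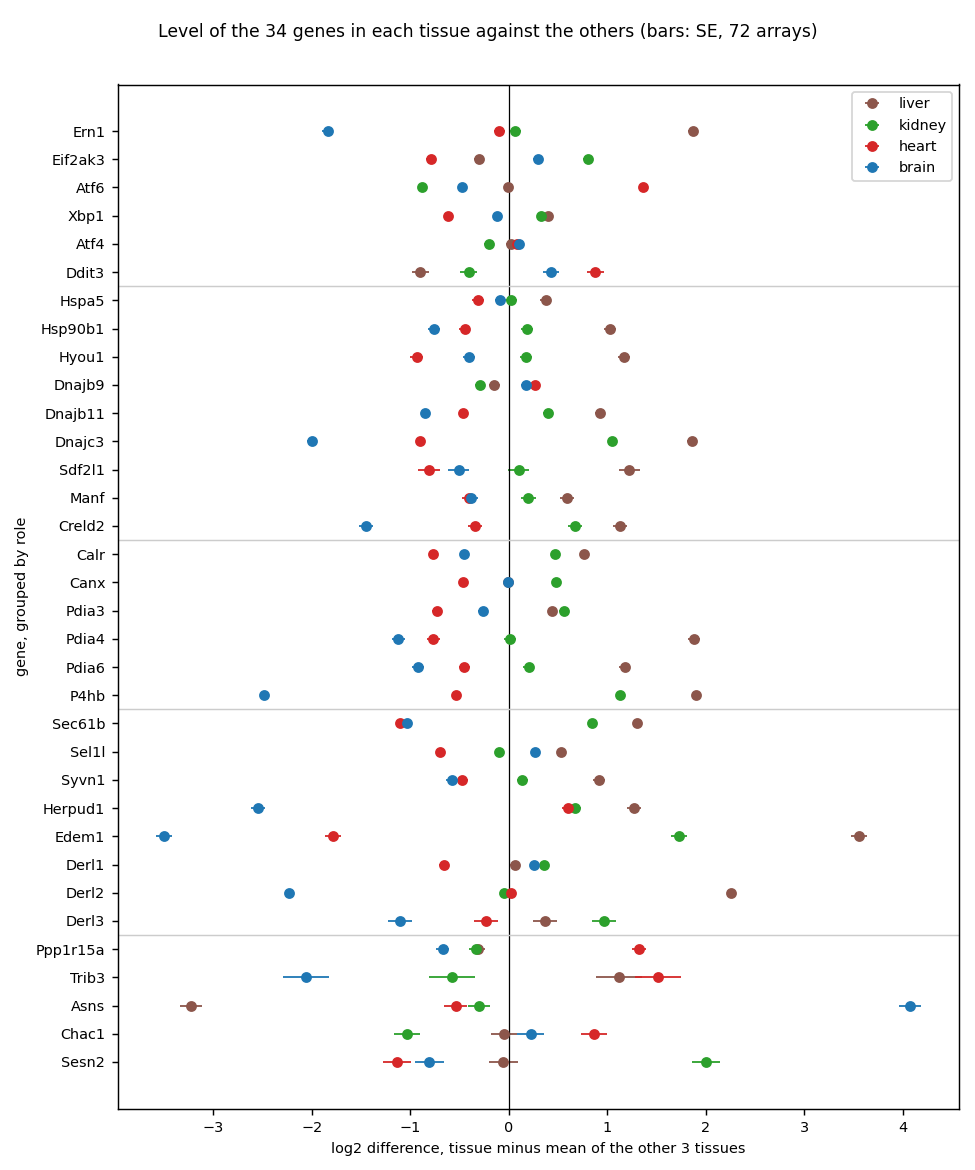
Log2 difference of each of the 34 genes (rows, grouped by role) between 1 organ and the mean of the other 3, from all 72 arrays; points are the organs and bars the standard error. Asns in brain and Edem1 in liver lie farthest to the right, at 4.07 and 3.55, and Edem1 in brain farthest to the left, at -3.50.

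In brain, the difference between QH2 and control changed between durations for 2 genes, the chaperone Hspa5 and the transcription factor Xbp1. Hspa5 had a signal of 2336, 2341 and 2494 in the 3 QH2 brains at 14 months, against 3576, 3819.5 and 3349 in the control brains. At 6 months the order was the opposite, with 3807, 4073 and 3253 in QH2 brains and 2784, 2821 and 2205 in control brains. The QH2 and control arrays did not overlap at either duration. Xbp1 had 1621, 1695 and 1699.7 in QH2 brains and 2158, 2271 and 2064 in control brains at 14 months. Its 6-month signals were 1765, 2151 and 1853 in QH2 brains and 1471, 1598 and 1223 in control brains, again without overlap at either time.

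The test of that change subtracts the QH2-control difference at 6 months from that at 14 months, which is called the QH2 effect over time below. For Hspa5 it was -1.10 ± 0.15 on the log2 scale (95% interval -1.41 to -0.78, limma adjusted p = 0.00826), and for Xbp1 it was -0.80 ± 0.12 (-1.06 to -0.54, adjusted p = 0.0273). These 2 of 33 tested genes were called, where 0.0296% of all probe sets were (8 of 27022). Of those 8 probe sets 4 belonged to Hspa5 and Xbp1, which had 2 each; the remaining 4 were those of Homer1, Chordc1, Rbm14 and Btaf1, named here after their values were seen. The 2 genes with the next smallest p missed the threshold, Manf with -1.02 ± 0.19 (adjusted p = 0.0736) and Calr with -0.52 ± 0.10 (adjusted p = 0.112). In bulk tissue, fewer cells of a type and less RNA per cell cannot be told apart.

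Hspa5 kept its call in 11 of the 12 fits that each left out 1 array, with values from -1.19 to -0.98; without control array 2 at 14 months its adjusted p was 0.0509. Xbp1 ran from -0.88 to -0.69 and kept its call in 7 of 12, losing it without QH2 array 2 at 6 months (0.0726), QH2 arrays 1 (0.113) or 2 (0.0742) at 14 months, or control arrays 1 (0.0688) or 2 (0.0969) at 14 months. Neither was called without the intensity trend in limma (adjusted p = 0.195 for both) or on intensities as deposited (0.991 or higher), where the values were -1.05 and -0.73. Of all 27022 probe sets these fits called 0 and 5 in that order. Xbp1 was also not called with the actin ratio as a covariate (-0.76, adjusted p = 0.07) or in a fit of only the QH2 and control arrays (adjusted p = 0.0677). The number of called genes was 4 without QH2 array 3 at 6 months, 3 without control array 3 at 14 months and 0 without control array 2 at 14 months. Of all 27022 probe sets these fits called 17, 8 and 0 in that order.

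Manf and Creld2 had the same order of diets as Hspa5, without passing the test. Manf, a small protein that binds BiP and can be secreted, had 678, 592 and 615 in QH2 brains and 1002, 1071 and 767 in control brains at 14 months. At 6 months it had 903, 1060.2 and 798 in QH2 brains and 697, 732 and 599.7 in control brains. Creld2, an ER-resident protein induced by the same stress, had 137, 125 and 118 in QH2 brains, against 178, 185 and 156 in control brains, at 14 months, and 170.1, 192 and 177 in QH2 brains, against 139, 148 and 112 in control brains, at 6 months. Both genes were separated between the diets at both durations. Calr, a lectin chaperone that also buffers calcium, had 1759.8, 1623 and 1649.6 in QH2 brains and 2317, 2249 and 2205 in control brains at 14 months.

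Taken by role, the QH2 effect over time was lower than 0 in 8 of 9 lumenal chaperones and co-chaperones (median -0.76), in 6 of 6 lectin chaperones and disulfide isomerases (median -0.45), in 6 of 6 sensors and transcription factors (median -0.24) and in 6 of 8 genes of translocation and degradation (median -0.26). The 4 tested targets of the PERK-ATF4 branch had a median of -0.017. Over all 33 genes 29 were negative, with a median of -0.31, against a median of 0.0050 over all probe sets. Sdf2l1, a partner of the co-chaperone Dnajb11, had the lowest value, -1.56 ± 0.37 (adjusted p = 0.284). Of the genes with ERSE or ERSE-II in the promoter window 10 of 11 were negative with a median of -0.52, against 16 of 18 with a median of -0.26 for those with a window and neither motif. In heart the order was the opposite, with a median of -0.11 (9 of 11 negative) against -0.29 (14 of 19). In liver the medians were -0.091 (9 of 11) and -0.0055 (10 of 19). The difference between genes with and without these motifs was not tested. Atf4 had -0.069 ± 0.14 and Ddit3 -0.81 ± 0.26 (adjusted p = 0.976 and 0.558).

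At each duration alone, limma called 0 of the 33 genes in QH2 against control brains. At 14 months 12 genes had an unadjusted p under 0.05, as had 1340 of all probe sets, and 0.0111% of probe sets were called (3 of 27022, of which 1 was a second Calr probe set at -0.47, adjusted p = 0.0381). The genes with the smallest p were Calr at -0.43 ± 0.074, Hspa5 at -0.58 ± 0.11, Xbp1 at -0.37 ± 0.087 and Manf at -0.58 ± 0.14 (adjusted p from 0.0678 to 0.441). At 6 months 12 genes and 2312 probe sets had an unadjusted p under 0.05 and 0% of probe sets were called. The leading genes then were Xbp1 at 0.43 ± 0.087, Hspa5 at 0.51 ± 0.11, Pdia4 at 0.53 ± 0.15 and Creld2 at 0.44 ± 0.13 (adjusted p from 0.173 to 0.365). All 3 QH2 brains lay below all 3 control brains for 14 of the 33 genes at 14 months, where 6.96% of all probe sets did so. All 3 lay above them for 10 genes at 6 months, where 5.74% did. The opposite order was that of 1 gene at 14 months, Derl1 (background 6.28%), and of 1 at 6 months, Ppp1r15a (6.01%). Hspa5, Xbp1, Manf, Creld2, Sdf2l1 and Ern1 were in both counts. Ddit3 stood at -0.39 ± 0.19 at 14 months and at 0.41 ± 0.19 at 6 months, and Atf4 at -0.077 ± 0.10 and -0.0086 ± 0.10.

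Cell markers and RNA integrity were recorded beside these values. The summed signal of the 7 neuron and glia markers was 34392 to 35387 in QH2 brains at 14 months, against 33169 to 34084 in control brains, and 31675 to 32991 against 33492 to 34396 at 6 months. The 12 macrophage markers summed to 3563 to 3790.4 in QH2 brains and 3344 to 3736 in control brains at 14 months, and to 3126 to 3740.3 and 3199.9 to 3652 at 6 months. The neuron and glia sums of QH2 and control brains did not overlap, being higher with QH2 at 14 months and lower at 6 months. No marker of any list was called by limma between diets in brain, where 0.0296% of all probe sets or fewer were called. Of the 7 T cell markers 0 were tested there. The part of the cell markers in the result was not tested. The actin ratio was 1.73, 1.79 and 1.72 in QH2 brains and 1.73, 1.69 and 1.66 in control brains at 14 months. It was 1.95, 1.75 and 1.85 in QH2 brains and 1.80, 1.86 and 1.86 in control brains at 6 months. With that ratio in the fit the call of Hspa5 held and that of Xbp1 did not.

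**Figure D2:**
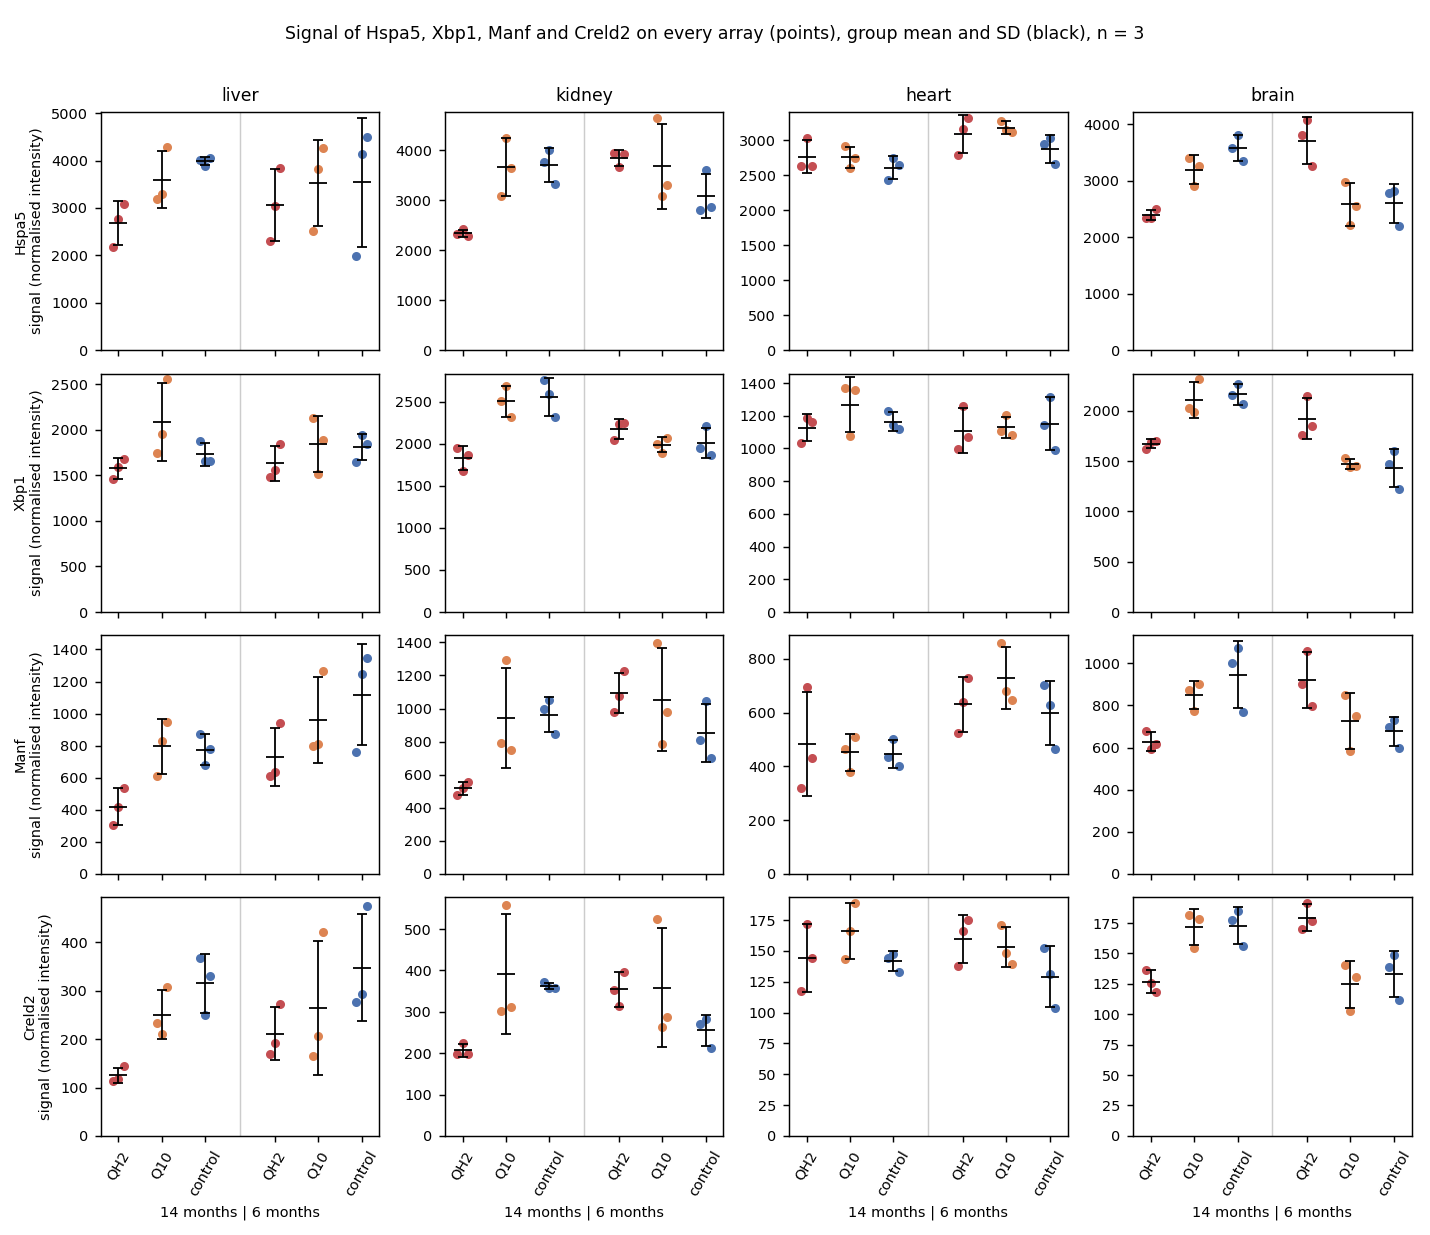
Normalised signal (linear intensity, axes from 0) of Hspa5, Xbp1, Manf and Creld2 on every array, by organ and diet, with 14 months to the left of 6 months; points are arrays, black bars the mean and SD of 3 arrays. In brain the QH2 points of Hspa5 lie below the control points at 14 months and above them at 6 months.

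In kidney the lower chaperone signal after 14 months of QH2 was called against Q10. Of the 34 genes 7 fell in QH2 against Q10 kidneys at 14 months and 0 rose, where 5.96% of all probe sets were called. The 7 were Hspa5 and Hsp90b1, the ER members of the major heat shock protein families, the transcription factor Xbp1, the secreted factors Manf and Creld2, and Syvn1 and Sel1l, the ubiquitin ligase of ER-associated degradation and its adaptor.

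Hspa5 had a signal of 2313, 2421 and 2284 in QH2 kidneys at 14 months, 3077, 4250.5 and 3649.9 in Q10 kidneys and 3769.6, 3996 and 3323 in control kidneys. Hsp90b1 had 1588, 1931 and 1534 with QH2, 2720.0, 2789 and 2249 with Q10 and 2605, 2100.3 and 2294 with the control diet. Xbp1 had 1953, 1678 and 1867 with QH2, 2509.7, 2679 and 2313 with Q10 and 2759.7, 2588 and 2319 with control. For these genes every QH2 kidney lay below every kidney of both other diets. Manf had 478, 517 and 556 with QH2, 790.2, 1291 and 751 with Q10 and 995, 1049.7 and 844 with control. Creld2 had 198, 225 and 197 with QH2, 303, 558 and 313 with Q10 and 371, 358 and 358 with control. The QH2 kidneys were again lowest, and Q10 array 2 stood highest for both genes. Syvn1 had 241, 230.4 and 211 with QH2, 333, 377 and 321 with Q10 and 284, 296 and 356 with control. Sel1l had 301, 375 and 356 with QH2, 489.9, 434 and 415 with Q10 and 469.7, 429.5 and 385 with control.

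The log2 differences, QH2 minus Q10, were Hsp90b1 at -0.62 ± 0.11, Xbp1 at -0.45 ± 0.088, Syvn1 at -0.59 ± 0.12 and Hspa5 at -0.63 ± 0.14 (limma adjusted p = 0.00537, 0.00763, 0.0108 and 0.0131). The weaker calls were Manf at -0.82 ± 0.20, Creld2 at -0.86 ± 0.23 and Sel1l at -0.38 ± 0.11 (adjusted p = 0.0249, 0.0347 and 0.0452). With 1 array left out at a time the count ran from 2 to 8: it was 2 without Q10 array 2, leaving Hsp90b1 and Xbp1, and 4 without QH2 array 1 or without QH2 array 3. The calls among all 27022 probe sets moved as well, from 1611 with all arrays to 518 without Q10 array 2. They were 741 without QH2 array 1, 714 without QH2 array 3 and 3041 without Q10 array 1. Fits of only the 6 arrays compared, or of the intensities as deposited, called 0 genes, and the fit without the intensity trend called 3. Of all 27022 probe sets these fits called 0, 54 and 683 in that order.

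The summed signal of markers of other cell types also differed in this comparison. The 12 macrophage markers summed to 2207 to 2748 in QH2 kidneys, 3032 to 11488 in Q10 kidneys and 2229 to 4589.8 in control kidneys, and 3 of the 11 tested were called lower with QH2 than with Q10. The 10 B and plasma cell markers summed to 558 to 2759 with QH2, 3365 to 5204 with Q10 and 2022 to 4270.5 with control. The 6 adipocyte markers went the other way, at 8674 to 10681, 669.7 to 5672 and 1843 to 8819, as did the 10 pancreatic acinar markers, at 1107 to 1403, 527 to 838 and 1107 to 1237. Only 3 of the acinar markers were bright enough to be tested in kidney. In all 4 lists the sums of QH2 and control kidneys overlapped. The actin ratio was 2.05, 3.37 and 2.47 with QH2, 3.22, 1.64 and 2.37 with Q10 and 2.25, 2.48 and 2.1 with control. Their part in the result was not tested.

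Against the control diet the same direction was seen at 14 months, but limma called 0 of the 34 genes, and 0% of all probe sets; 13 genes and 1561 probe sets had an unadjusted p under 0.05. The leading values were Xbp1 at -0.48 ± 0.088, Hspa5 at -0.66 ± 0.14, Manf at -0.89 ± 0.20 and Hsp90b1 at -0.47 ± 0.11 (adjusted p = 0.519), and 29 of 34 genes were negative with a median of -0.19. All QH2 kidneys lay below all control kidneys for 14 of 34 genes, where 5.05% of all probe sets did so, and above them for 0 (background 6.3%). At 6 months 29 of 34 genes were positive, with a median of 0.16, and limma called 0 of them, against 0.192% of probe sets; 5 genes and 2647 probe sets had an unadjusted p under 0.05. The leading values then were Pdia6 at 0.44 ± 0.17, Calr at 0.19 ± 0.076, Hsp90b1 at 0.27 ± 0.11 and Hspa5 at 0.32 ± 0.14 (adjusted p from 0.362 to 0.44). All QH2 kidneys lay above all control kidneys for 11 of 34 genes at 6 months, where 7.26% of probe sets did so, and below them for 1, Trib3 (8.56%).

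The QH2 effect over time in kidney had a median of -0.34 with 30 of 34 genes negative, among them 9 of 9 lumenal chaperones (median -0.74) and 8 of 8 genes of translocation and degradation (median -0.33). Limma called 0 genes and 0% of probe sets, while 13 genes and 2367 probe sets had an unadjusted p under 0.05. The smallest p were those of Hspa5 at -0.98 ± 0.19, Xbp1 at -0.59 ± 0.12, Hsp90b1 at -0.74 ± 0.16 and Manf at -1.27 ± 0.29 (adjusted p from 0.156 to 0.2). The 11 genes with ERSE or ERSE-II were all negative with a median of -0.54, against 15 of 19 with a median of -0.22 for genes without them. In a fit of only the QH2 and control arrays, which called 7 of all 27022 probe sets, 3 genes were called. Among them were Hspa5 (limma adjusted p = 0.0225) and Manf (0.0497). Ddit3 had -0.46 ± 0.33 and Atf4 0.12 ± 0.16. QH2 against Q10 at 6 months gave 0 called genes, where 0.3% of probe sets were called; 2 genes and 2727 probe sets had an unadjusted p under 0.05. The leading values were Herpud1 at 0.55 ± 0.18, Dnajb9 at 0.41 ± 0.14, Dnajc3 at 0.21 ± 0.11 and Sel1l at 0.19 ± 0.11 (adjusted p from 0.262 to 0.582).

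In liver 3 genes fell in QH2 against Q10 livers at 14 months and 0 rose, where 9.6% of all probe sets were called. These are 8.82% of the 34 genes, so the count was near the background. Creld2 had 114, 117 and 143 in QH2 livers, 233, 212 and 307 in Q10 livers and 367, 249 and 330.4 in control livers. Manf had 307, 420.1 and 533 with QH2, 611, 829.5 and 946 with Q10 and 873, 677 and 777 with control. For both genes all QH2 livers lay below all livers of the other diets. Pdia3, a disulfide isomerase that works with calreticulin, had 835, 928 and 977 with QH2, 1234, 1453 and 1507 with Q10 and 1126, 905 and 1186 with control, so that QH2 and control livers overlapped. The differences, QH2 minus Q10, were Pdia3 at -0.61 ± 0.16, Manf at -0.93 ± 0.25 and Creld2 at -0.99 ± 0.29 (limma adjusted p = 0.023, 0.0251 and 0.0364). Eif2ak3 came next with -0.69 ± 0.23 (adjusted p = 0.06).

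These livers also differed in the summed signal of cell markers and in RNA integrity. The 12 macrophage markers summed to 1197 to 1968 in QH2 livers, 5338 to 20068 in Q10 livers and 885 to 1990.5 in control livers, and all 12 were called lower with QH2 than with Q10. The 8 neutrophil markers summed to 688 to 17170 in Q10 livers, and 6 were called lower with QH2. The actin ratio was 7.36, 3.67 and 5.01 with QH2, 3.05, 1.59 and 1.98 with Q10 and 3.49, 3.88 and 4.11 with control. With that ratio as a covariate the differences were -0.14 for Pdia3, -0.24 for Manf and -0.82 for Creld2, and none of the 3 was called. That fit called 0 of all 27022 probe sets in this comparison. The count of called genes ran from 0 to 7 with 1 array left out: it was 7 without Q10 array 1, 1 without QH2 array 3, and 0 without Q10 array 2, Q10 array 3, QH2 array 1 or QH2 array 2. Of all probe sets 2595 were called with all arrays and 818 without QH2 array 3. The 4 fits without a called gene called 765, 912, 1017 and 1693 probe sets in the order named.

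Against the control diet limma called 0 of 34 liver genes at 14 months and 0% of probe sets; 6 genes and 1669 probe sets had an unadjusted p under 0.05. The leading values were Creld2 at -1.32 ± 0.29, Manf at -0.91 ± 0.25, Sel1l at -0.38 ± 0.13 and Atf6 at -0.52 ± 0.19 (adjusted p from 0.285 to 0.664). The chaperone Hspa5 had 2183, 2773 and 3093 in QH2 livers, against 4019, 3895 and 4052 in control livers, without overlap, and a log2 difference of -0.59 ± 0.26 (adjusted p = 0.772). All QH2 livers lay below all control livers for 11 of 34 genes, where 9.34% of probe sets did so, and above them for 1, Chac1 (background 9.34%). In a fit of only the QH2 and control arrays, which called 110 of all 27022 probe sets, Creld2 was called (limma adjusted p = 0.00784).

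In liver at 6 months 25 of 34 genes had a negative difference between QH2 and control, with a median of -0.13. All QH2 livers lay below all control livers for 4 genes, Ern1, Hyou1, Sdf2l1 and Creld2, where 5.44% of probe sets did so. They lay above them for 1 gene, Sesn2, where 5.51% did. Limma called 0 genes and 0% of probe sets, with 6 genes and 1924 probe sets at an unadjusted p under 0.05. The values with the smallest p were Ern1 at -0.49 ± 0.15, Sesn2 at 1.39 ± 0.53, Creld2 at -0.70 ± 0.29 and Manf at -0.60 ± 0.25 (adjusted p from 0.429 to 0.651). The QH2 effect over time had a median of -0.084, 0 called genes and 0% of probe sets called, with 1 gene and 1628 probe sets at an unadjusted p under 0.05; it was led by Syvn1 at -0.76 ± 0.35, Sesn2 at -1.49 ± 0.74, Sel1l at -0.35 ± 0.18 and Sdf2l1 at 0.77 ± 0.43 (adjusted p from 0.813 to 0.866). Hspa5 had -0.44 ± 0.37, Xbp1 0.017 ± 0.22, Atf4 0.23 ± 0.23 and Ddit3 -0.11 ± 0.45 (adjusted p = 0.925, 0.999, 0.945 and 0.996). Whether this effect differs between organs was not tested. QH2 against Q10 at 6 months gave 0 called genes where 0.988% of probe sets were called, with 4 genes and 2864 probe sets at an unadjusted p under 0.05, led by Derl1 at -0.45 ± 0.15, Herpud1 at 0.65 ± 0.25, Ppp1r15a at 0.58 ± 0.26 and Edem1 at 0.33 ± 0.15 (adjusted p from 0.227 to 0.445).

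In heart no gene of the programme was called between diets. In QH2 against control hearts limma called 0 of 34 genes and 0% of probe sets at both durations, while 8 genes and 1264 probe sets at 14 months and 7 genes and 2041 probe sets at 6 months had an unadjusted p under 0.05. At 14 months the leading values were Herpud1 at -0.41 ± 0.14, Atf4 at -0.62 ± 0.21, Hyou1 at 0.58 ± 0.21 and Calr at 0.23 ± 0.092 (adjusted p from 0.811 to 0.997), and at 6 months Calr at 0.28 ± 0.092, Hsp90b1 at 0.26 ± 0.10, Herpud1 at 0.35 ± 0.14 and P4hb at 0.22 ± 0.089 (adjusted p from 0.524 to 0.606). At 14 months all QH2 hearts lay below all control hearts for 6 of 34 genes, where 5.22% of probe sets did so: Atf4, Ddit3, Herpud1, Ppp1r15a, Trib3 and Sesn2. They lay above them for 4 genes, Hsp90b1, Hyou1, Canx and Derl1, where 4.93% did. At that time 8 of 9 lumenal chaperones had a positive difference (median 0.057). Over all 34 genes 16 were positive and 18 negative (median -0.029), and 50.1% of all probe sets were negative. At 6 months all QH2 hearts lay above all control hearts for 6 genes, where 5.61% did so: Eif2ak3, Hsp90b1, Calr, Pdia6, P4hb and Syvn1. For Derl1 they lay below (background 5.95%).

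Herpud1, a scaffold of ER-associated degradation, had the smallest p for the QH2 effect over time in heart. Its signal was 1221, 1127 and 1103 in QH2 hearts and 1361, 1615 and 1632 in control hearts at 14 months, and 2351, 2037 and 2314 in QH2 hearts and 2156, 1284 and 1946 in control hearts at 6 months. Limma called 0 genes and 0% of probe sets for this effect, with 7 genes and 1966 probe sets at an unadjusted p under 0.05; it was Herpud1 at -0.76 ± 0.19, Derl1 at 0.70 ± 0.21, Chac1 at -1.34 ± 0.54 and Syvn1 at -0.69 ± 0.29 (adjusted p from 0.459 to 0.655). Hspa5 overlapped between diets in heart, at 2626, 3037 and 2636 with QH2 and 2433, 2746 and 2647 with control at 14 months, and its QH2 effect over time was -0.018 ± 0.12. Xbp1 had 0.0036 ± 0.16, Atf4 -0.62 ± 0.30 and Ddit3 -0.66 ± 0.28.

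QH2 against Q10 hearts gave 0 called genes at 14 months and at 6 months, where 0% and 0.0666% of probe sets were called; 7 genes and 2976 probe sets, and 4 genes and 1898 probe sets, had an unadjusted p under 0.05. At 14 months the leading values were Atf4 at -0.58 ± 0.21, Dnajc3 at -0.32 ± 0.12, Syvn1 at -0.55 ± 0.20 and Asns at -0.48 ± 0.21 (adjusted p from 0.28 to 0.399). At 6 months they were Herpud1 at 0.71 ± 0.14, Dnajc3 at 0.36 ± 0.12, Pdia4 at 0.48 ± 0.16 and Chac1 at 0.84 ± 0.38 (adjusted p from 0.061 to 0.685), and the 2351, 2037 and 2314 of Herpud1 in QH2 hearts stood against 1239, 1374 and 1499 in Q10 hearts without overlap.

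QH2 and Q10 differ by the redox state of the quinone ring, and were compared at the same dose and time in 8 pairs, 1 per organ and duration, with p-values adjusted over all probe sets within each pair. Past the threshold were the 7 kidney and 3 liver genes at 14 months described above, the liver count being near its background, and 0 genes in the other 6 pairs. In brain 0% of probe sets were called at either duration, with 10 genes and 1284 probe sets at an unadjusted p under 0.05 at 14 months and 9 genes and 2058 probe sets at 6 months. Brain Hspa5 had 2336, 2341 and 2494 with QH2 and 3406, 2913 and 3262 with Q10 at 14 months, and 3807, 4073 and 3253 with QH2 and 2977, 2219.8 and 2559.7 with Q10 at 6 months. The arrays of the 2 forms did not overlap at either time, and yet the difference was not called: it was -0.42 at 14 months (95% interval -0.64 to -0.19) and 0.53 at 6 months (0.30 to 0.75). At 14 months the smallest p were those of Hspa5 at -0.42 ± 0.11, Xbp1 at -0.33 ± 0.087, Creld2 at -0.43 ± 0.13 and Calr at -0.24 ± 0.074 (adjusted p from 0.571 to 0.773), and at 6 months those of Hspa5 at 0.53 ± 0.11, Xbp1 at 0.38 ± 0.087, Creld2 at 0.54 ± 0.13 and Sdf2l1 at 0.83 ± 0.26 (adjusted p from 0.215 to 0.476).

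In Q10 against control no gene of the programme was called in any organ. The comparisons of Q10 and of QH2 share their control arrays, so their values are given side by side. At 14 months the median log2 difference of the genes was, in brain, -0.18 for QH2 and -0.029 for Q10; in kidney, -0.19 for QH2 and 0.027 for Q10; in heart, -0.029 for QH2 and 0.085 for Q10; in liver, -0.22 for QH2 and -0.087 for Q10. At 6 months it was 0.17 for QH2 and -0.0057 for Q10 in brain, 0.16 for QH2 and 0.020 for Q10 in kidney, 0.17 for QH2 and 0.037 for Q10 in heart, and -0.13 for QH2 and -0.17 for Q10 in liver. All medians over all probe sets lay between -0.098 and 0.014. All Q10 brains lay below all control brains for 2 of 33 genes at 14 months (background 6.51%) and above them for 1 at 6 months (5.11%). In kidney the counts were 2 of 34 at 14 months (9.73%) and 0 at 6 months (6.23%).

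In brain 0% of probe sets were called for Q10 against control at both durations and for the Q10 effect over time, and 1 gene had an unadjusted p under 0.05 in each, against 1433 probe sets at 14 months, 1641 at 6 months and 1341 over time. The smallest p at 14 months were those of Calr at -0.19 ± 0.074, Asns at -0.12 ± 0.064, Sesn2 at -0.41 ± 0.23 and Hspa5 at -0.17 ± 0.11 (adjusted p from 0.853 to 0.997), and at 6 months those of Derl1 at 0.26 ± 0.094, Pdia4 at 0.28 ± 0.15, Asns at 0.11 ± 0.064 and Atf4 at -0.16 ± 0.10 (adjusted p from 0.783 to 0.856). Over time they were those of Asns at -0.24 ± 0.091, Calr at -0.17 ± 0.10, Ern1 at -0.29 ± 0.19 and P4hb at 0.14 ± 0.10 (adjusted p = 0.98). For Hspa5 the Q10 effect over time was -0.16 (95% interval -0.47 to 0.16) and for Xbp1 it was -0.09 (-0.35 to 0.17); both intervals lay above the fitted QH2 effects of -1.10 and -0.80, and the difference of the 2 effects was not tested.

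In kidney 0.666% of probe sets were called for Q10 against control at 14 months, 0% at 6 months and 0.0074% over time; 3, 0 and 0 genes had an unadjusted p under 0.05, against 3383, 1115 and 1916 probe sets. The leading genes were Derl1 at 0.27 ± 0.10, Dnajb9 at -0.36 ± 0.14, Ddit3 at -0.50 ± 0.23 and Herpud1 at -0.33 ± 0.18 at 14 months (adjusted p from 0.249 to 0.495) and Herpud1 at -0.36 ± 0.18, Dnajb9 at -0.28 ± 0.14, Creld2 at 0.43 ± 0.23 and Hspa5 at 0.24 ± 0.14 at 6 months (adjusted p = 0.999). Over time they were Trib3 at 1.75 ± 1.11, Pdia6 at -0.36 ± 0.23, Syvn1 at 0.24 ± 0.17 and Hspa5 at -0.26 ± 0.19 (adjusted p from 0.789 to 0.825). In liver 5.98% of probe sets were called for Q10 against control at 14 months, 0.807% at 6 months and 2.31% over time, with 6, 2 and 2 genes at an unadjusted p under 0.05 against 5819, 2488 and 4504 probe sets. The smallest p belonged to Pdia3 at 0.39 ± 0.16, Derl2 at -0.38 ± 0.17, Dnajc3 at -0.38 ± 0.17 and Hyou1 at -0.45 ± 0.20 at 14 months (adjusted p from 0.166 to 0.211) and to Pdia4 at -0.67 ± 0.23, Edem1 at -0.36 ± 0.15, Ern1 at -0.30 ± 0.15 and Herpud1 at -0.49 ± 0.25 at 6 months (adjusted p from 0.238 to 0.614). Over time they belonged to Sdf2l1 at 1.15 ± 0.43, Pdia3 at 0.54 ± 0.23, Derl1 at -0.35 ± 0.22 and Syvn1 at -0.41 ± 0.35 (adjusted p from 0.174 to 0.589).

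In heart 0% of probe sets were called in each of the Q10 comparisons; 4 genes at 14 months, 6 at 6 months and 3 over time had an unadjusted p under 0.05, against 2603, 1557 and 1824 probe sets. The genes with the smallest p were Calr at 0.34 ± 0.092, Hsp90b1 at 0.35 ± 0.10, Edem1 at 1.25 ± 0.36 and Sec61b at 0.37 ± 0.12 at 14 months (adjusted p from 0.174 to 0.271) and P4hb at 0.26 ± 0.089, Hsp90b1 at 0.29 ± 0.10, Calr at 0.26 ± 0.092 and Eif2ak3 at 0.44 ± 0.16 at 6 months (adjusted p from 0.706 to 0.761). Over time they were Dnajc3 at 0.48 ± 0.17, Sec61b at 0.41 ± 0.17, Pdia4 at 0.54 ± 0.23 and Pdia6 at -0.41 ± 0.28 (adjusted p from 0.657 to 0.811). Without Q10 array 1 at 14 months, 2 genes were called in Q10 against control hearts and 2 in QH2 against Q10 hearts. The share of all probe sets called in that fit is not given here.

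**Figure D3:**
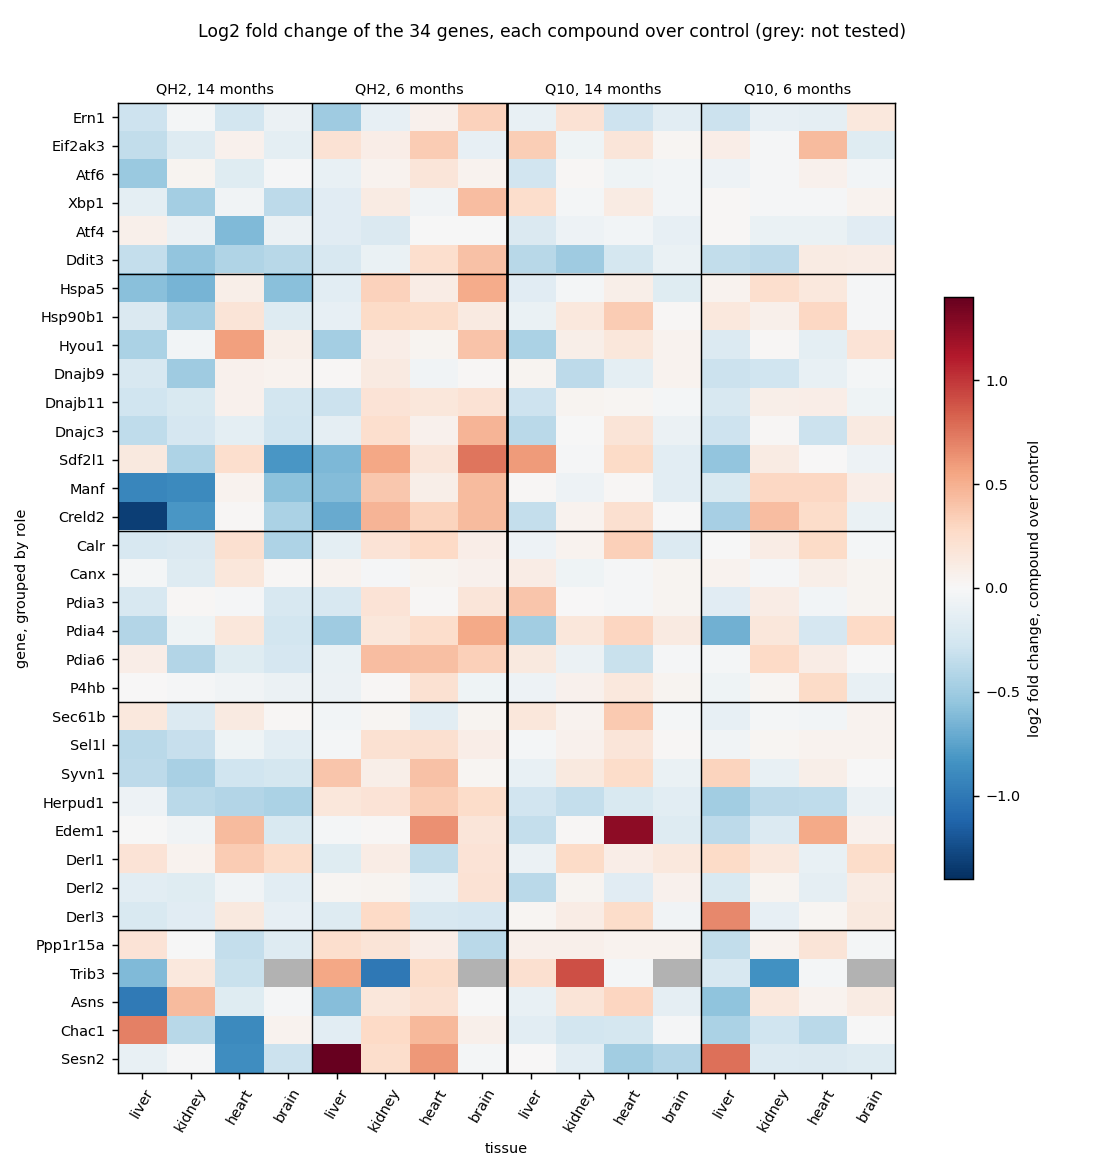
Log2 fold change over control of each of the 34 genes (rows, grouped by role) for QH2 and then Q10, at 14 and then 6 months, in liver, kidney, heart and brain (columns); red is higher and blue lower with the compound, and grey is Trib3 in brain, which was not tested. With QH2, kidney and brain columns are mostly blue at 14 months (29 of 34 and 27 of 33 genes negative) and mostly red at 6 months (29 of 34 and 26 of 33 positive).

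**Figure D4:**
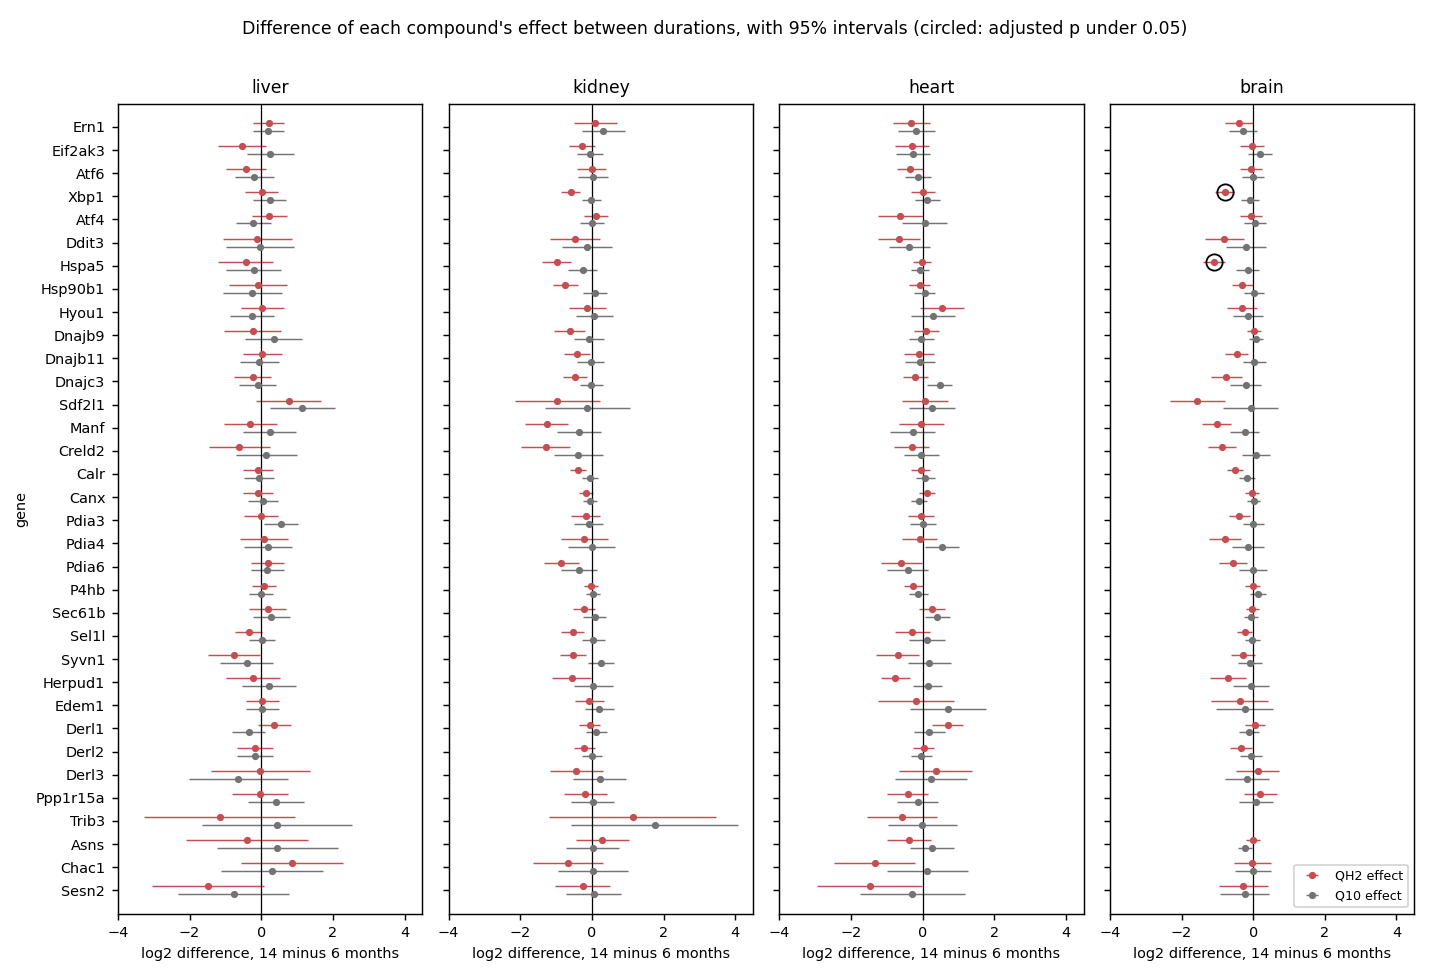
Effect of QH2 (red) and of Q10 (grey) over time, as the log2 difference from control at 14 months minus that at 6 months, for each gene and organ; bars are 95% intervals and circles mark adjusted p under 0.05. The circled points are Xbp1 and Hspa5 in brain, at -0.80 and -1.10.

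Between durations, over all diets (9 arrays each), the programme changed in single genes and in both directions. The 14-month mice were also older, at 15 against 7 months, so that feeding time and age cannot be told apart. In brain 12 of 33 genes rose and 5 fell, where 56% of all probe sets were called. In kidney 7 of 34 rose and 7 fell (40.4% of probe sets), in heart 5 rose and 5 fell (18.8%), and in liver 3 rose and 4 fell (20.6%). These are 51.5%, 41.2%, 29.4% and 20.6% of the genes tested, each near the share of all probe sets except in heart. These are means over the diets. Of the called genes 4 of 17 in brain, 5 of 14 in kidney, 1 of 10 in heart and 1 of 7 in liver had 1 diet with a change of the opposite sign.

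Dnajb9, a BiP co-chaperone and a target of XBP1, rose most clearly in brain, by 0.72 ± 0.037 (adjusted p = 2.53e-11): its signals over the 9 brains ran from 1435 to 1588 at 14 months and from 857 to 980.3 at 6 months. The other genes that rose there, of the 12 with the smallest p, were Derl1 at 0.51 ± 0.054, Sec61b at 0.28 ± 0.037, Xbp1 at 0.31 ± 0.05, Pdia3 at 0.35 ± 0.058, Canx at 0.17 ± 0.037, Ern1 at 0.27 ± 0.076 and Dnajc3 at 0.30 ± 0.085. Those that fell were Sel1l at -0.41 ± 0.041, Dnajb11 at -0.35 ± 0.061, Asns at -0.21 ± 0.037 and Pdia6 at -0.29 ± 0.076 (adjusted p of the 12 from 2.53e-11 to 0.00533). The rise of Xbp1 is a mean over opposite changes: its log2 difference, 14 minus 6 months, was -0.20 with QH2, 0.51 with Q10 and 0.60 with control. Its mean signals with QH2 were 1672 at 14 months and 1923 at 6 months. Dnajc3 (-0.13), Sdf2l1 (-0.50) and Herpud1 (-0.14), also called higher over all diets, were negative with QH2 too, and positive with the other diets. On intensities as deposited all probe sets had a median of 0.42 in this contrast, and the 4 genes named as lower then had values from 0.11 to 0.32, below that median. Ddit3 (0.12 ± 0.11), Atf4 (-0.12 ± 0.059) and Hspa5 (0.05 ± 0.061) were not called.

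In kidney, of the 12 with the smallest p, the genes that rose were Syvn1 at 0.65 ± 0.071, Calr at 0.29 ± 0.044, Hsp90b1 at 0.40 ± 0.065, P4hb at 0.20 ± 0.038 and Canx at 0.15 ± 0.038, and those that fell were Pdia3 at -0.45 ± 0.078, Pdia4 at -0.61 ± 0.13, Dnajb11 at -0.30 ± 0.071, Derl2 at -0.22 ± 0.056, Pdia6 at -0.36 ± 0.10, Sdf2l1 at -0.69 ± 0.23 and Manf at -0.35 ± 0.12 (adjusted p from 3.43e-06 to 0.025). Hspa5 (-0.15 ± 0.079), Atf4 (0.061 ± 0.065) and Ddit3 (-0.05 ± 0.14) were not called there. Xbp1 rose by 0.14 ± 0.051 over all diets (adjusted p = 0.0299). Its difference was -0.25 with QH2, 0.33 with Q10 and 0.35 with control. Hsp90b1 (-0.12) and Sel1l (-0.20) were likewise negative with QH2 alone among the genes called higher. Manf had -1.08 with QH2, -0.16 with Q10 and 0.19 with control, and Pdia6 -0.81, -0.32 and 0.045 with these diets in the same order. The lumenal disulfide isomerases Pdia3, Pdia4 and Pdia6 fell while P4hb rose, so members of that family moved apart. As deposited, all probe sets had a median of 0.40 here, and Dnajb11 (0.052) and Derl2 (0.12) lay above 0 but below that median.

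In heart Calr at 0.31 ± 0.053, P4hb at 0.20 ± 0.051, Trib3 at 0.63 ± 0.19, Syvn1 at 0.37 ± 0.12 and Edem1 at 0.65 ± 0.21 rose, and Herpud1 at -0.40 ± 0.079, Dnajb11 at -0.39 ± 0.082, Pdia3 at -0.33 ± 0.072, Manf at -0.51 ± 0.12 and Hspa5 at -0.17 ± 0.048 fell (adjusted p from 0.000407 to 0.0343); Xbp1 (0.071 ± 0.066), Atf4 (0.11 ± 0.12) and Ddit3 (0.026 ± 0.11) were not called. On intensities as deposited all probe sets had a median of 0.80 in this contrast, and the 5 genes that fell then had values from 0.30 to 0.61, above 0 but below that median. In liver Sel1l at 0.58 ± 0.073, Syvn1 at 0.57 ± 0.14 and Derl1 at 0.34 ± 0.089 rose, and Pdia3 at -0.69 ± 0.093, Ern1 at -0.42 ± 0.084, Hyou1 at -0.44 ± 0.12 and Manf at -0.52 ± 0.15 fell (adjusted p from 3.91e-05 to 0.0167). The second probe sets of Sel1l, Derl1 and Ern1 had the opposite sign in liver. Hspa5 (0.044 ± 0.15), Xbp1 (0.021 ± 0.09), Atf4 (-0.14 ± 0.10) and Ddit3 (-0.38 ± 0.19) were not called in liver. By its brightest probe set Pdia3 fell in liver, kidney and heart and rose in brain, but its second probe set was negative in brain. Syvn1 rose in liver, kidney and heart over all diets, with -0.15 in QH2 hearts. Derl1 in liver had -0.019 with Q10.

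**Figure D5:**
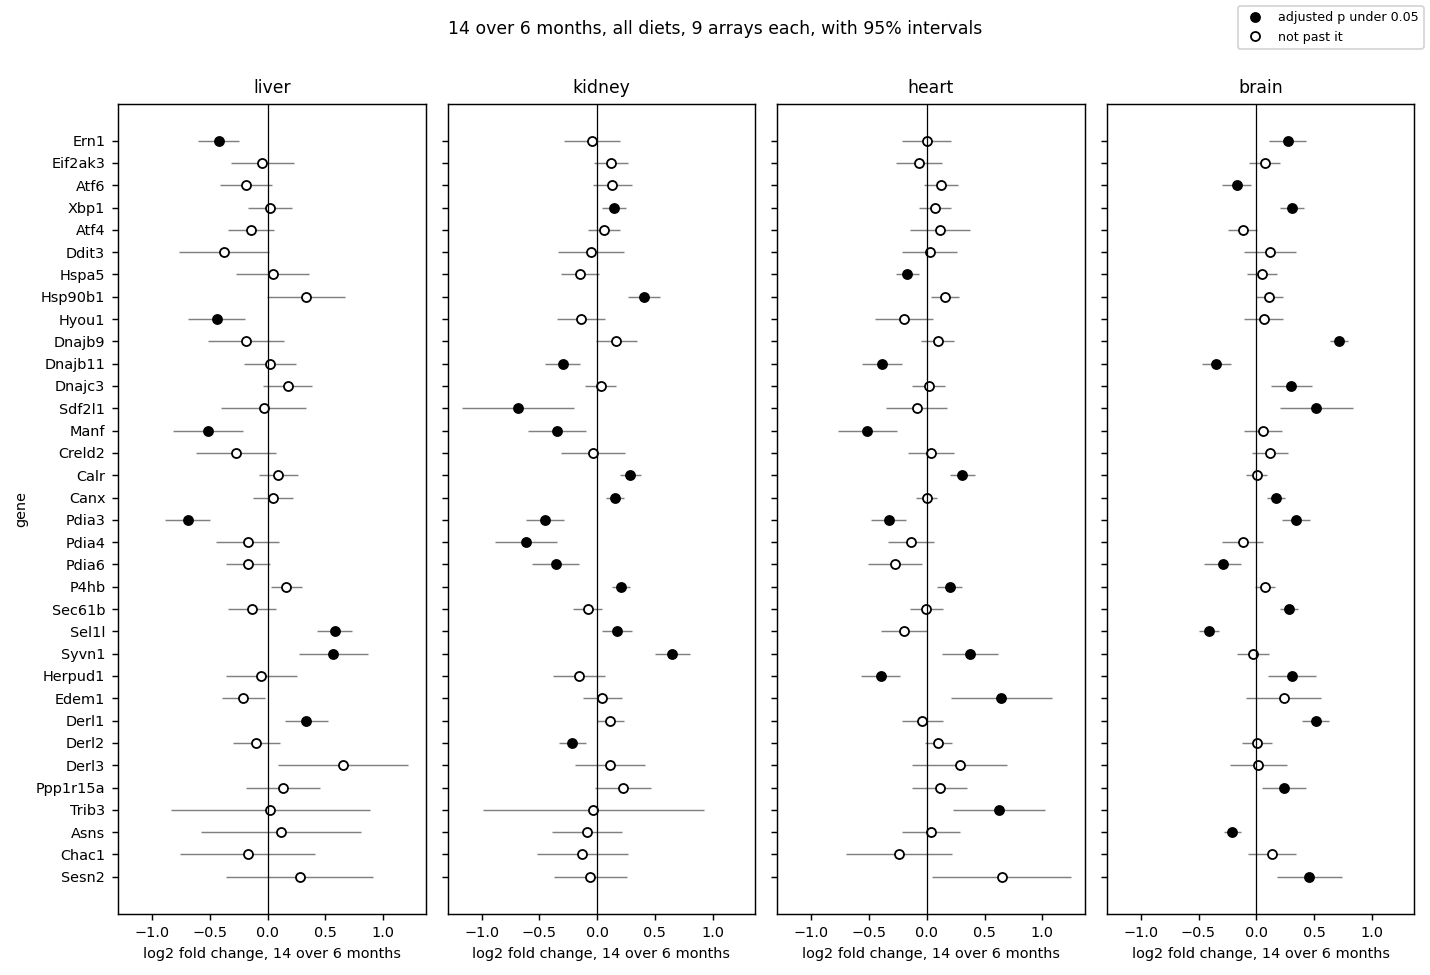
Log2 fold change of each gene, 14 over 6 months, over all diets in each organ (9 arrays each), with 95% intervals; filled points have an adjusted p under 0.05. Dnajb9 in brain (0.72) and Syvn1 in kidney (0.65) are among the filled points farthest to the right.

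The rest of the pathway was followed in lists of 40 further genes of translocation and folding, 23 of ER-associated degradation and 39 ATF4 targets, of which 38, 22 and 37 had a probe set. In brain no gene of these lists was called in any comparison between diets, where 0.0296% of all probe sets or fewer were called. Their medians for the QH2 effect over time were -0.015, 0.017 and 0.015.

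In kidney, QH2 against Q10 at 14 months, 2 of 38 folding genes rose and 3 fell, 1 of 22 degradation genes rose, and 3 of 35 ATF4 targets fell, where 5.96% of all probe sets were called. The 4 with the smallest p were Slc7a1 at -1.17 (adjusted p = 0.00134), Sec11c at -0.66 (adjusted p = 0.0174), Marchf6 at 0.36 (adjusted p = 0.0181) and Aldh18a1 at -1.53 (adjusted p = 0.0234). Slc7a1 is a cationic amino acid transporter and Sec11c a subunit of the signal peptidase. In liver the same comparison had 1 folding gene higher and 1 lower of 37, 1 degradation gene lower of 22, and 3 ATF4 targets higher and 1 lower of 34, where 9.6% of all probe sets were called. It was led by Phgdh at -4.01 (adjusted p = 0.00871), Tsc22d3 at 0.95 (adjusted p = 0.00884), Cth at 0.73 (adjusted p = 0.0252) and Fkbp2 at 0.47 (adjusted p = 0.0343). Phgdh makes serine from a glycolytic intermediate.

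Over all diets, 14 over 6 months, 18 of 37 folding genes, 10 of 22 degradation genes and 23 of 35 ATF4 targets were called in brain, of the last 17 higher, where 56% of all probe sets were called. The genes with the smallest p were Ddit4 at 1.04 (adjusted p = 3.85e-08), Sec11c at 0.48 (adjusted p = 5.71e-08), Nars at 0.36 (adjusted p = 7.19e-08) and Spcs3 at -0.48 (adjusted p = 1.72e-07); Ddit4, an inhibitor of mTOR signalling, had the smallest. In heart 5 of 35 ATF4 targets rose and 0 fell, with Aldh18a1, an enzyme of proline synthesis, at 0.87. There 18.8% of all probe sets were called, so the count was not above the background. Called folding genes of heart went both ways, with Erp44 at -0.43 and Stt3a at 0.38. Called ATF4 targets also went both ways in kidney (Slc3a2 at -0.41, Eprs at 0.38) and in liver (Tars at -0.64, Cebpb at 0.70).

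Other probe sets of a gene did not always follow the brightest one. In brain a second Hspa5 probe set gave a QH2 effect over time of -1.17 ± 0.19 (adjusted p = 0.0276), and a further one -0.34 ± 0.15 (adjusted p = 0.742). For Xbp1 a second gave -0.90 ± 0.12 (adjusted p = 0.00826) and another -0.78 ± 0.14 (adjusted p = 0.0536). In kidney, QH2 against Q10 at 14 months, the second Hspa5 probe set stood at -0.75 ± 0.19 (adjusted p = 0.0243) and the second Xbp1 probe set at -0.34 ± 0.15 (adjusted p = 0.183). The second Sel1l probe set had 0.12 in that comparison, opposite to the brightest one, and the second Pdia3 probe set had 0.041 in liver. Between durations the second probe sets of Hsp90b1 and Canx fell in kidney (-0.40 and -0.53, adjusted p = 0.00107 and 0.000638), where the brightest ones rose. In brain the second probe sets of Pdia3 (-0.24), Canx (-0.018), Ern1 (-0.38) and Asns (0.091), and in liver those of Sel1l (-0.28), Derl1 (-0.23) and Ern1 (0.56), also had the opposite sign between durations.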

How the data were processed

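Total RNA from 72 organ samples was hybridised to Affymetrix mouse arrays, and the authors deposited 1 linear intensity per probe set and array, computed with GCOS per the submitters' processing notes; the sources used here do not give its settings. Of 45101 probe sets 64 controls were left out. Intensities were quantile normalised within an organ (over all 72 arrays for organ comparisons), 1 was added and log2 taken; probe sets above the 40th percentile of mean log2 signal were tested. Gene names came from the platform annotation, updated by gene ID where it held 1 symbol (34945 probe sets; 932 had several and 9160 none).

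R 4.3.3 with limma 3.58.1 fitted 1 mean per diet and duration in each organ, with an intensity trend, and tested 9 contrasts an organ. P-values were two-sided and adjusted by the Benjamini-Hochberg method. The scripts were tested on simulated data. No 2 arrays held identical values. The number of arrays limits the precision.

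The genes and lists were chosen with earlier results of these data known. In each comparison every called gene was named, or the 4 with the smallest p where fewer than 4 were called and the 12 with the smallest p where more than 12 were, and Hspa5, Xbp1, Atf4 and Ddit3 in every organ. Alternatives tried were no normalisation, no filter, an offset of 16, no intensity trend, a replicate block, the actin ratio as a covariate, only the groups compared, each gene's second brightest probe set, equal medians for the organ comparisons, and each array left out in turn. A planned search of the proteins for a C-terminal retention signal was not run.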

Additional observations from a re-analysis of the deposited data

Results flagged for a closer look

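The effect of QH2 differed between durations in brain by its own test for Hspa5 and Xbp1. For Hspa5 the log2 difference between QH2 and control was -0.58 at 14 months and 0.51 at 6 months, a change of -1.10 (limma adjusted p = 0.00826); all 3 QH2 arrays lay below the 3 control arrays at 14 months and above them at 6 months. For Xbp1 the differences were -0.37 at 14 months and 0.43 at 6 months, a change of -0.80 (adjusted p = 0.0273), with the same separation of arrays. Groups of 3 arrays were not searched for outlying arrays.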

How the results depend on the processing

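Counts of called genes stayed within 1.5 times the reported ones in every comparison with no filter on dim probe sets, with an offset of 16 and with the replicate number as a block. The replicate numbers did not pair the arrays: same-numbered arrays had median correlations of their deviations of 0.0077 in brain, -0.0022 in heart, -0.0081 in kidney and -0.00055 in liver, and 9, 4, 4 and 7 of 18 arrays were closest to their own number. With the replicate block 4 genes were called for QH2 against Q10 at 14 months in liver (3 without it), 6 in kidney (7) and 2 for the QH2 effect over time in brain (2). The 4 organ comparisons gave 28, 29, 30 and 30 calls with the mouse implied by diet, duration and number as a random replicate block.

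On intensities as deposited 0 genes were called for QH2 against Q10 at 14 months in liver and kidney and for the QH2 effect over time in brain. For Q10 against control at 14 months 1 was called in heart, where all probe sets had a median of 0.40. Between durations 2 were called in liver, 33 in heart and 29 in brain, but all probe sets shifted too, by a median of 0.20, 0.80 and 0.42. Relative to that shift 11 genes lay above and 23 below in liver, 21 and 13 in heart, and 25 and 8 in brain. The counts between durations therefore include the uncorrected level of the arrays. Where 0 genes were called, the probe sets called were 961 in liver, 54 in kidney and 5 in brain, of 27022. Without the intensity trend the counts of called genes were 0 in liver and 3 in kidney for QH2 against Q10 at 14 months, and 0 for the brain effect over time. The probe sets called there were 1444, 683 and 0. With the actin ratio as a covariate the counts of called genes were 0 for that liver comparison, 1 for the brain effect (Xbp1 was lost) and 11 in brain between durations. In that liver comparison 0 of all 27022 probe sets were then called. Fits of only the arrays compared gave, for QH2 against Q10, 0 at 14 months in liver, 0 at 14 months in kidney and 1 at 6 months in heart, for QH2 against control at 14 months 1 in liver and 4 in brain, and for the QH2 effect over time 3 in kidney and 1 in brain. For QH2 against Q10 at 14 months, such fits called 0 of all 27022 probe sets in liver and in kidney. For QH2 against control at 14 months they called 110 in liver and 17 in brain. For the QH2 effect over time they called 7 in kidney and 5 in brain. Second probe sets gave 1 for QH2 against control at 14 months in brain and 1 for QH2 against Q10 at 6 months in heart. Leaving out 1 array gave 0 to 7 calls in liver and 2 to 8 in kidney for QH2 against Q10 at 14 months, 0 to 4 for the brain effect, 0 to 1 for QH2 against Q10 at 6 months in liver, 0 to 2 for Q10 against control at 14 months in liver and in heart, 0 to 2 for QH2 against Q10 at 14 months in heart and 0 to 1 for QH2 against control at 6 months in brain.

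Named genes turned sign with the second probe set in 31 values. In liver these were, for QH2 against control at 6 months Ern1 0.026, for Q10 against control at 6 months Edem1 0.16 and Ern1 1.17, for QH2 against Q10 at 6 months Derl1 0.28, for Q10 against control at 14 months Pdia3 -0.27, for QH2 against Q10 at 14 months Pdia3 0.041 and Eif2ak3 0.36, for between durations Sel1l -0.28, Ern1 0.56 and Derl1 -0.23, for QH2 effect over time Sel1l 0.053, for Q10 effect over time Pdia3 -0.11 and Derl1 0.13. In kidney these were, for QH2 against Q10 at 6 months Sel1l -0.046, for Q10 against control at 14 months Derl1 -0.036, for QH2 against Q10 at 14 months Sel1l 0.12, for between durations Hsp90b1 -0.40 and Canx -0.53, for Q10 effect over time Trib3 -0.18. In heart these were, for QH2 against Q10 at 6 months Dnajc3 -0.089, for QH2 against control at 14 months Hyou1 -0.035, for QH2 effect over time Derl1 -0.0078, for Q10 effect over time Dnajc3 -0.069. In brain these were, for Q10 against control at 6 months Derl1 -0.13 and Asns -0.030, for Q10 against control at 14 months Asns 0.10, for between durations Pdia3 -0.24, Asns 0.091, Canx -0.018 and Ern1 -0.38, for Q10 effect over time Asns 0.13. As deposited 14 values turned sign, while all probe sets shifted by up to 0.80 on the log2 scale between durations in heart. In kidney these were, for between durations Dnajb11 0.052 and Derl2 0.12. In heart these were, for between durations Herpud1 0.41, Dnajb11 0.46, Pdia3 0.47, Manf 0.30 and Hspa5 0.61. In brain these were, for Q10 against control at 6 months Derl1 -0.042, Pdia4 -0.063 and Asns -0.20, for between durations Sel1l 0.11, Dnajb11 0.14, Asns 0.32 and Pdia6 0.23. The cause was not tested for any of these. No named gene turned sign under any other alternative, leaving out arrays included. With 3 arrays a group, differences below the median half-widths of 0.35 in brain, 0.54 in heart, 0.46 in kidney and 0.69 in liver are poorly resolved, and signals of dim genes such as Trib3 limit their precision further.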
